A study of Equus caballus with 3 samples.

Results

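The genes described here are *CYP1B1* and 5 further genes of the aryl hydrocarbon receptor pathway, *CYP1A1*, *AHR*, *AHRR*, *TIPARP* and *NQO1*, in cultured equine mesenchymal stromal cells (MSCs). *CYP1B1* was selected because earlier results of these same data showed it to be higher in bone marrow-derived MSCs than in the other sources, so its order across sources is a description and not independent evidence. The other genes were selected as the receptor and its best known targets. Of the 6, 5 have a row under their symbol among the 29927 genes of the matrices. The receptor gene *AHR* itself was not analysed here, because no row used carries that symbol, so whether *CYP1B1* went with the level of the receptor could not be asked.

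Donor-matched MSCs from the adipose tissue (AT), the bone marrow (BM) and the blood (PB) of 1 healthy Warmblood mare aged 10 years were compared, each after 2 passages and without any treatment named in the labels. A single droplet scRNA-seq library was made per source, so a source cannot be told apart from its library, no replicate error exists and no test was run. The sources follow the sample titles, since the source name in the labels, peripheral blood mononuclear cells, is the same in all 3 samples. Intervals are exact 95% intervals (Poisson for sums of unique molecular identifiers, UMIs, and Clopper-Pearson for shares of cells) and cover counting error only.

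The aryl hydrocarbon receptor is a cytoplasmic transcription factor that waits in a complex with the chaperone HSP90 and its co-chaperone p23 (*PTGES3*). On binding a planar aromatic ligand, such as a dioxin or a tryptophan metabolite, it enters the nucleus, pairs with ARNT and raises the transcription of xenobiotic-metabolising enzymes. *CYP1A1* and *CYP1B1* encode cytochrome P450 enzymes that oxidise such ligands and also oestradiol and retinoids. *AHRR* and *TIPARP* encode feedback repressors of the receptor, and *NQO1* encodes a quinone reductase that is a target of both the receptor and the oxidative stress factor NRF2. *CYP1B1* is the form known from mesenchymal cells, whereas *CYP1A1* is known mainly from liver, skin and other epithelia.

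After removal of barcodes with fewer than 2500 or more than 15000 UMIs, or with more than 3% mitochondrial UMIs, 5403 AT-, 5580 BM- and 5318 PB-derived MSCs were kept. They held 39980656, 40239295 and 41622445 UMIs with medians of 7291, 6874.5 and 7750 per cell, so that 3 UMIs in a whole library, the limit that a count of 0 allows, correspond to 0.0750, 0.0746 and 0.0721 CPM (UMIs of a gene scaled to equal library totals). The label MSC was checked on 9 stromal markers, whose summed level was 28247, 25733 and 37758 CPM in AT, BM and PB. Single stromal markers differed by more than 1 on the log2(CPM + 1) scale. *COL1A1* was lower in BM, *LUM* lower in AT and *THY1* lower in PB than in both other sources, and 7 of the 9 stayed within 1 in each pair. The 8 haematopoietic markers summed to 7.30, 11.5 and 5.33 CPM, nearly all of it *CD68* in each library, and the 6 endothelial markers stayed under 1 CPM in sum. The 7 smooth muscle or pericyte markers summed to 1043, 960 and 671 CPM, mostly *ACTA2* (721, 763 and 613 CPM), with *DES* at 204, 5.04 and 0.288, *CNN1* at 106, 162 and 33.1 and *MCAM* at 3.50, 17.7 and 0.577 CPM. *CSPG4* went the other way, lowest in AT and highest in PB, at 1.98, 7.38 and 21.6 CPM. Of 3 epithelial markers with a row, *KRT8* reached 45.4 CPM in AT against 1.22 in BM and 0.0240 in PB, and the part of these markers in any difference between sources was not tested.

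Barcodes were shared between libraries. The AT and PB matrices shared 5788 barcodes, and all 5318 kept PB barcodes also stood in the AT matrix, 5279 of them among the 6155 AT barcodes below 2500 UMIs. Only 74 kept AT barcodes were also in the PB matrix, and 106 barcodes were shared by AT and BM and 57 by BM and PB. The log2 differences of the members from AT are therefore given with and without those 74 barcodes, and the other values with them.

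*CYP1B1*, on the plus strand of chromosome 15 in the EquCab3.0 build of the files, was highest in BM, close behind in PB and low but present in AT. Its summed level was 39.99 CPM in AT-derived MSCs (1599 UMIs, interval 38.1 to 42.0), 597 CPM in BM-derived MSCs (24013 UMIs, 589 to 604) and 368 CPM in PB-derived MSCs (15322 UMIs, 362 to 374). None of the 3 intervals overlapped, so the order BM, PB, AT held beyond counting error. The level in BM was 14.9-fold that in AT (14.2 to 15.7) and 1.62-fold that in PB (1.59 to 1.65), and PB stood 9.20-fold above AT (8.74 to 9.70). On the log2(CPM + 1) scale the differences were 3.87 for BM minus AT, 0.70 for BM minus PB and 3.17 for PB minus AT. Without the 74 AT barcodes that were also in PB, the differences from AT were 3.91 for BM and 3.21 for PB.

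For *CYP1A1*, the classical inducible target on chromosome 1, nearly no transcript was counted. The AT and BM libraries each held 2 of its UMIs and the PB library 1, which is below the limit of 3 UMIs per library. A difference between sources was not detectable at this depth.

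*AHRR*, the receptor repressor on the minus strand of chromosome 21, was highest in BM and lowest in PB. Its level was 10.96 CPM in AT (438 UMIs, 9.95 to 12.03), 19.7 CPM in BM (791 UMIs, 18.3 to 21.1) and 6.34 CPM in PB (264 UMIs, 5.60 to 7.16). No 2 of these intervals overlapped. PB, second in *CYP1B1*, was thus last in *AHRR*, with log2 differences of 1.49 for BM minus PB, 0.79 for BM minus AT and -0.70 for PB minus AT. Without the shared AT barcodes the differences from AT remained 0.79 and -0.70.

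*TIPARP*, which encodes a mono-ADP-ribosyltransferase that represses the receptor and lies on chromosome 19, was sparse in every source. It was counted at 1.98 CPM in AT (79 UMIs, 1.56 to 2.46), 1.29 CPM in BM (52 UMIs, 0.965 to 1.69) and 1.42 CPM in PB (59 UMIs, 1.08 to 1.83). The intervals overlapped for every pair, and AT, lowest in *CYP1B1*, had the highest value. The BM level was 0.654-fold that of AT (exact conditional interval 0.452 to 0.940), while the wider bounds of the log2 difference, which take opposite ends of both Poisson intervals, were -0.82 to 0.07. The log2 differences from AT were -0.38 for BM and -0.30 for PB, and -0.39 and -0.31 without the shared AT barcodes.

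*NQO1*, on the minus strand of chromosome 3, rose in the order AT, BM, PB. Its level was 10.6 CPM in AT (422 UMIs, 9.57 to 11.6), 22.1 CPM in BM (891 UMIs, 20.7 to 23.6) and 32.6 CPM in PB (1355 UMIs, 30.8 to 34.3), with no overlap of the intervals. *NQO1* shared with *CYP1B1* the low place of AT but not the order of the other two sources. Its log2 differences were 1.002 for BM minus AT, 1.54 for PB minus AT and -0.54 for BM minus PB. Without the shared AT barcodes they were 0.9998 for BM minus AT, just under the threshold of 1 used below, and 1.54 for PB minus AT.

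**Figure D1:**
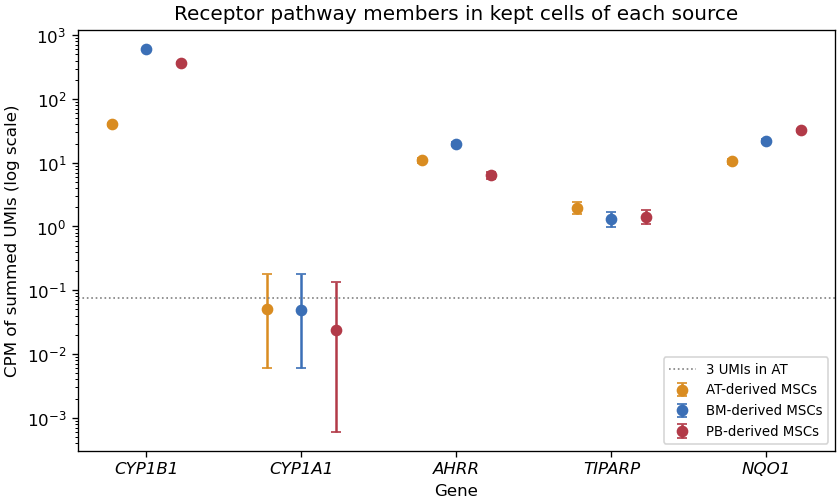
Levels of the 5 genes with a row (horizontal axis) in the kept cells of each source, as CPM of summed UMIs on a log scale, with exact 95% Poisson intervals as bars and the level of 3 UMIs in AT as a dotted line. *CYP1B1* stood at 39.99, 597 and 368 CPM in AT, BM and PB, *AHRR* and *NQO1* each had another order of sources, and *CYP1A1* lay below 3 UMIs.

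Read against all genes, a difference past 1 on the log2(CPM + 1) scale was not rare. Among 7072 genes with at least 10 CPM in AT or BM, 8.33% were higher in BM by that much and 2.46% higher in AT. Between BM and PB the shares were 5.8% higher in BM and 2.15% higher in PB of 7066 genes, and between PB and AT 5.8% higher in PB and 4.02% higher in AT of 6720 genes. The median over all tested genes was 0.24 for BM minus AT, 0.20 for BM minus PB and 0.03 for PB minus AT, and scaling by TMM factors brought these to -0.05, -0.04 and -0.02. Of the members, *CYP1B1* and *NQO1* were past 1 in BM over AT and in PB over AT, and *AHRR* was past 1 in BM over PB. *AHRR* reached 10 CPM in that pair only through BM. With a pseudocount of 25 CPM, *AHRR* in BM over PB fell to 0.51 and *NQO1* in PB over AT to 0.69, both under the threshold. *NQO1* stood at the threshold in BM over AT, with 0.9998 without the shared AT barcodes, 0.94 after thinning of every cell to 2500 UMIs, 0.74 with TMM factors, 0.75 with all barcodes of at least 500 UMIs, 0.41 with a pseudocount of 25 CPM, 1.03 as a mean of single-cell CPM, 1.11 without BM cluster 3 and 1.31 in cells called G1, and *AHRR* at 0.79 lay just outside it.

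In single cells, the order of BM and PB depended on the measure. A *CYP1B1* UMI was found in 18.5% of the AT culture (interval 17.5 to 19.6%). The share was 78.0% in the BM culture (76.9 to 79.1%) and 80.9% in the PB culture (79.8 to 81.9%). PB-derived MSCs were more deeply sampled, and after every cell was thinned to 2500 UMIs the shares were 8.64% in AT, 59.6% in BM (58.3 to 60.9%) and 53.5% in PB (52.1 to 54.8%), in the order of the CPM. At least 2 UMIs were found in 6.50%, 63.4% and 60.9% of unthinned cells. The unthinned share therefore gives no order between BM and PB. No cell type that should lack *CYP1B1* was identified in these cultures, so no background share of free transcripts can be set beside these values.

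*CYP1B1* was spread unevenly over the cells of each source. The mean number of UMIs per positive cell was 1.60, 5.51 and 3.56 in AT, BM and PB, with highest counts of 10, 47 and 23 in a cell. At equal depth, 24.4% of BM-derived MSCs held 3 or more *CYP1B1* UMIs against 10.8% in PB and 0.370% in AT. The variance divided by the mean, which is 1 for counts without spread between cells and grows with the mean, was 1.54 in AT, 3.05 in BM and 1.59 in PB at equal depth, where the means were 0.111, 1.68 and 0.964 UMIs. In AT, where most cells had none, the 541 unthinned cells with the most *CYP1B1* held 71.2% of its UMIs, whereas the highest 558 cells of BM held 37.6% and the highest 532 cells of PB 32.6%.

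**Figure D2:**
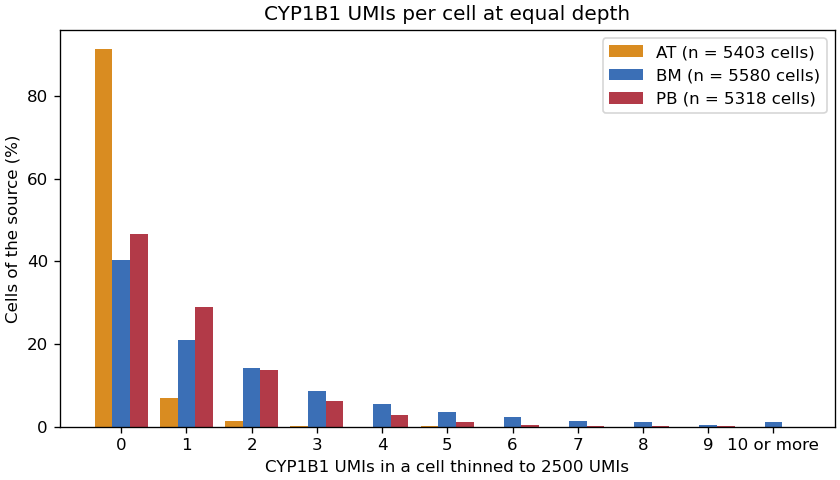
Share of cells of each source (vertical axis, %) by the number of *CYP1B1* UMIs in a cell thinned to 2500 UMIs (horizontal axis). AT-derived MSCs were mostly at 0, and BM had both many cells at 0 (40.4%, against 46.5% in PB) and the longest tail, with 1.18% of cells at 10 or more against 0.0376% in PB.

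The other members were thinly sampled in single cells. The share of cells with an *AHRR* UMI was 7.46%, 12.4% and 4.70% in AT, BM and PB, and with an *NQO1* UMI 7.26%, 14.3% and 21.04%. *TIPARP* was seen in 1.41%, 0.914% and 1.11% of cells. After thinning, *AHRR* was left in 2.74%, 4.57% and 1.71% and *NQO1* in 2.91%, 5.65% and 7.69%, with the order of the sources as before for both genes.

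Each source was clustered separately with the settings of the study's methods, giving 8 clusters in AT, 7 in BM and 10 in PB. *CYP1B1* varied far more among the clusters of BM than among those of the other sources. In AT it ranged from 26.2 CPM in cluster 1 to 60.9 CPM in cluster 0, and in PB, over the 9 clusters with at least 50 cells, from 193 CPM in cluster 3 to 540 CPM in cluster 4. In BM it ranged from 52.5 CPM in cluster 3 (649 cells, 47.0 to 58.6) to 1080 CPM in cluster 2 (976 cells, 1055 to 1106), a ratio of 20.6 against 2.32 in AT and 2.80 in PB. The remaining BM clusters held 273 CPM in cluster 4 and 541 to 783 CPM in the others. Clusters were defined on the same cells and genes, so these values describe the clusters and test nothing. The ratios were 2.17, 20.4 and 2.80 in AT, BM and PB when the members were left out of the variable genes.

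BM cluster 3 brought together low levels of several genes that separated BM from AT. Its *CYP1B1* level of 52.5 CPM compared with 695 CPM in the rest of BM and 39.99 CPM in AT, and 22.5% of its cells had a *CYP1B1* UMI against 85.4% in the rest. *NQO1* was at 12.2 CPM there (9.62 to 15.3), against 23.9 in the rest of BM and 10.6 in AT. The retinal-oxidising *ALDH1A3*, listed among the receptor's targets, was at 4.41 CPM against 90.4, and *EPHX1*, the microsomal epoxide hydrolase, at 2.77 against 58.3. The listed targets *THBS1* and *SERPINB2* were higher in the cluster, at 734 CPM against 324 and at 3.10 CPM against 0.557. *AHRR* went another way, at 18.6 CPM in cluster 3 (15.3 to 22.3) and 19.8 in the rest of BM, both above the 10.96 CPM of AT. *TIPARP* had 15 UMIs there, or 2.45 CPM (1.37 to 4.04), and 1.08 CPM in the rest (0.764 to 1.495). In the cluster 9.86% of cells were called G1, and its median depth was 9468 UMIs. Genes of high level in AT differed there. *IGFBP5* was at 98.5 CPM against 1.38 in the rest of BM (258 in AT), *DES* at 25.6 against 1.35 (204 in AT) and *CYP27C1* at 7.02 against 0.440 (12.2 in AT), whereas *MFAP4*, at 179 CPM in AT, had 0.816 CPM against 0.410. Without this cluster the *CYP1B1* log2 difference was 4.08 for BM minus AT and 0.91 for BM minus PB.

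*AHRR* varied less than *CYP1B1* among the clusters of BM. It lay between 14.5 and 22.4 CPM in the 7 clusters, and its highest levels, in clusters 0 and 2, were in the clusters that were also highest in *CYP1B1*. Over clusters its r with *CYP1B1* was 0.23 in BM and -0.42 in PB. In PB it was highest in cluster 8 (152 cells), with 25 UMIs or 23.05 CPM (14.9 to 34.0), while the other clusters of at least 50 cells lay between 2.94 and 9.96 CPM. *CYP1B1* in PB cluster 8 was 341 CPM, near the 368 CPM of PB as a whole, and *NQO1* had its lowest PB value there, 23.05 CPM. *NQO1* was otherwise highest in PB cluster 6, at 50.5 CPM, and in BM cluster 6, at 42.5 CPM.

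**Figure D3:**
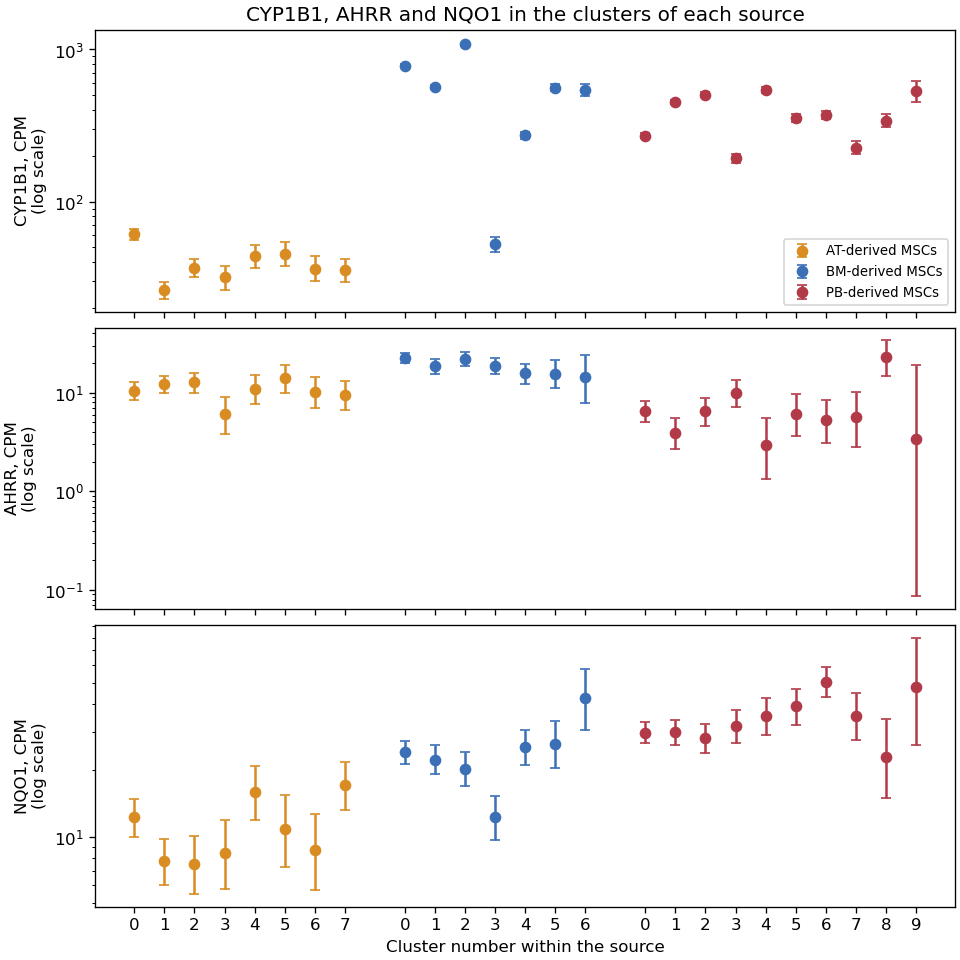
*CYP1B1*, *AHRR* and *NQO1* (panels, CPM on a log scale with exact 95% Poisson intervals) in each cluster of AT-, BM- and PB-derived MSCs (horizontal axis, cluster number within the source). *CYP1B1* fell to 52.5 CPM in BM cluster 3, where *AHRR* kept the level of the other BM clusters, and PB cluster 8 stood apart in *AHRR* at 23.05 CPM.

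*CYP1B1* was lower in cells called S or G2M than in cells called G1 in BM and PB, with classes taken from phase scores alone. The share of cells called G1 was 58.8%, 67.5% and 60.8% in AT, BM and PB. In BM the level was 781 CPM in G1 cells and 281 CPM in cells called S or G2M, a log2 difference of 1.47, which was 0.93 without cluster 3. In the BM clusters where both classes could be compared, the difference was smaller, from 0.09 in cluster 5 to 0.59 in cluster 3, where the counting bounds included 0 (-0.14 to 0.32 and -0.03 to 1.18). In clusters 0, 1 and 2 it was 0.40, 0.20 and 0.34, with bounds that excluded 0. Counting bounds leave out the spread between cells. The variance over unthinned cells was 6.16 times the mean in BM and 2.94 times in PB, so these bounds are too narrow. In PB the levels were 403 and 314 CPM (0.36), and within its clusters the difference ran from -0.12 in cluster 2 to 0.31 in cluster 4, with bounds that excluded 0 in clusters 0, 1 and 4 only. In AT they were 39.3 and 41.0 CPM (-0.06, bounds -0.26 to 0.14). In G1 cells alone the sources kept their order, with log2 differences of 4.28 for BM minus AT and 0.95 for BM minus PB. In cells called S or G2M the order of BM and PB was reversed. PB was at 314 CPM (305 to 323) and BM at 281 CPM (272 to 289), with AT lowest.

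The CPM of *CYP1B1* fell with the number of UMIs in a cell in each source. Over 4 depth classes of equal size, it went from 64.3 to 29.2 CPM in AT, from 986 to 348 CPM in BM and from 463 to 321 CPM in PB between the shallowest and the deepest class. The fall was also present in G1 cells alone, at 68.5 to 26.3, 1073 to 583 and 477 to 379 CPM. *AHRR* in BM G1 cells lay between 20.4 and 22.9 CPM in all classes, and *NQO1* between 18.9 and 26.1 CPM, with overlapping intervals of the shallowest and the deepest class for both genes. Over all phases in BM, *AHRR* went from 23.5 (19.8 to 27.6) to 17.2 CPM (15.1 to 19.4), and *NQO1* from 22.5 to 18.0 CPM with overlapping intervals. *JAM2* also fell in BM, from 550 to 334 CPM over all phases and from 575 to 455 CPM in G1 cells, but rose in PB from 151 to 176 CPM over all phases. In AT, with few UMIs, *JAM2* went from 3.69 (2.28 to 5.64) to 1.30 CPM (0.785 to 2.04) over all phases. The AT classes include the 74 barcodes also in PB, which held 15 of its 64 *JAM2* UMIs and 64 of its 1599 *CYP1B1* UMIs. At the fixed depth of 2500 UMIs the log2 differences of *CYP1B1* were 3.90 for BM minus AT and 0.80 for BM minus PB.

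**Figure D4:**
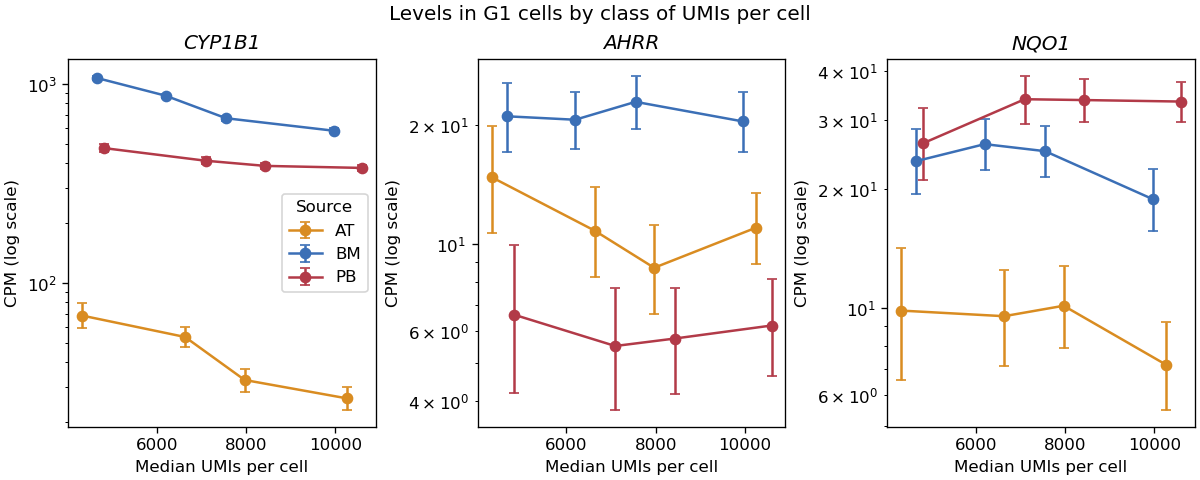
Levels of *CYP1B1*, *AHRR* and *NQO1* (panels, CPM on a log scale with exact 95% Poisson intervals) in G1 cells by depth class (horizontal axis, median UMIs per cell of the class). *CYP1B1* fell from the shallowest to the deepest class in each source, from 1073 to 583 CPM in BM, while *AHRR* in BM stayed between 20.4 and 22.9 CPM.

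Across single cells at equal depth, the correlation of *CYP1B1* with *AHRR* and *NQO1* was near 0. The Pearson correlation of log2(UMI + 1) over thinned cells, which share a library and a fixed depth, was 0.021 in AT, 0.030 in BM and -0.008 in PB with *AHRR*. With *NQO1* it was -0.0003, 0.030 and 0.0002. For comparison, the middle of the distribution of all genes seen in 1% of cells or more (5th to 95th percentile) ran from -0.023 to 0.027 in AT (8538 genes), from -0.080 to 0.060 in BM (9168 genes) and from -0.036 to 0.030 in PB (8661 genes), so both genes lay inside it. Other listed targets lay outside it in BM and PB, among them *ALDH1A3* at 0.18 in BM and 0.065 in PB, and *THBS1* at -0.25 in BM and -0.11 in PB. In AT both lay inside it, *ALDH1A3* at 0.017 and *THBS1* at -0.003. Their r without BM cluster 3 was not computed. In BM, the 255 thinned cells with an *AHRR* UMI had 780 *CYP1B1* CPM (713 to 851) and the others 668, and the 315 cells with an *NQO1* UMI had 762 (702 to 825). In counts this sparse, correlations near 0 do not show that genes are unrelated within a cell.

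Of 16 listed partners and cofactors of the receptor with a row, 10 were measured, meaning that they reached 10 CPM. Past 1 were 0 of the 10 in each pair of sources. Of all genes, 8.33% were past 1 in BM and 2.46% in AT for BM against AT, 5.8% in BM and 2.15% in PB for BM against PB, and 5.8% in PB and 4.02% in AT for PB against AT, so that 0 of 10 is near the background. The list had medians of 0.13 for BM minus AT, 0.20 for BM minus PB and 0.04 for PB minus AT. The level of the partner *ARNT* was 15.6, 17.0 and 13.7 CPM in AT, BM and PB. The cochaperone gene *PTGES3* was at 250, 342 and 302 CPM. The HSP90 gene *HSP90AA1* was highest in BM, at 433, 578 and 404 CPM, and *HSP90AB1* was lowest there, at 905, 661 and 810 CPM. Across thinned BM cells the r of *CYP1B1* was -0.23 with *HSP90AA1* and 0.11 with *HSP90AB1*.

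Other reported targets of the receptor moved in several directions. Of 26 with a row, 14 reached 10 CPM in each pair of sources, *CYP1B1*, *AHRR* and *NQO1* among them. In BM against AT, 7 of 14 were past 1 in BM, beside 8.33% of all genes tested, and 1 in AT, beside 2.46%, with a median of 0.90 beside 0.24. These counts support nothing by themselves, since *CYP1B1* was selected for its level in BM, and *ALDH1A3*, *EREG* and *FOSL1* reached 10 CPM in this pair only through BM. The gene past 1 in AT, *SERPINB2*, reached 10 CPM only through AT. With TMM factors 4 were past 1 in BM, since *NQO1*, *BAX* and *ID2* dropped under the threshold. The pro-apoptotic *BAX* was at 43.4, 104 and 62.5 CPM in AT, BM and PB, and *ID2*, an inhibitor of basic helix-loop-helix factors, at 60.9, 141 and 52.0 CPM. *ALDH1A3* had the source pattern closest to *CYP1B1* in this list, at 5.35, 77.3 and 75.7 CPM. The AP-1 subunit *FOSL1* was at 5.75, 20.03 and 10.8 CPM.

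*EREG*, which encodes the growth factor epiregulin, was counted almost wholly in BM, with 547 UMIs or 13.6 CPM there, 1 UMI in AT and 0 in PB, where the limit of 3 UMIs is 0.0721 CPM. *SERPINB2*, a plasminogen activator inhibitor, was the reverse, at 26.7 CPM in AT, 0.944 in BM and 0.168 in PB. In BM against PB, 5 of 14 were past 1 in BM (*AHRR*, *EREG*, *ABCG2*, *ID2* and *THBS1*) and 1 in PB, the cystine transporter gene *SLC7A11*, beside 5.8% and 2.15% of all genes. *AHRR*, *EREG* and *ABCG2* reached 10 CPM in this pair only through BM and *SLC7A11* only through PB, so these counts too support nothing by themselves. In PB against AT, 4 were past 1 in PB (*CYP1B1*, *NQO1*, *ALDH1A3* and *SLC7A11*) and 3 in AT (*SERPINB2*, *ABCG2* and *THBS1*), beside 5.8% and 4.02% of all genes. The same holds here, with *ALDH1A3* and *SLC7A11* measured only through PB and *SERPINB2* and *ABCG2* only through AT. *THBS1*, which encodes the matrix protein thrombospondin, was at 520, 386 and 90.0 CPM, and the efflux pump gene *ABCG2* at 14.8, 17.7 and 6.05 CPM. *CYP1A2* and *ALDH3A1* were under 1 CPM in every source.

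**Figure D5:**
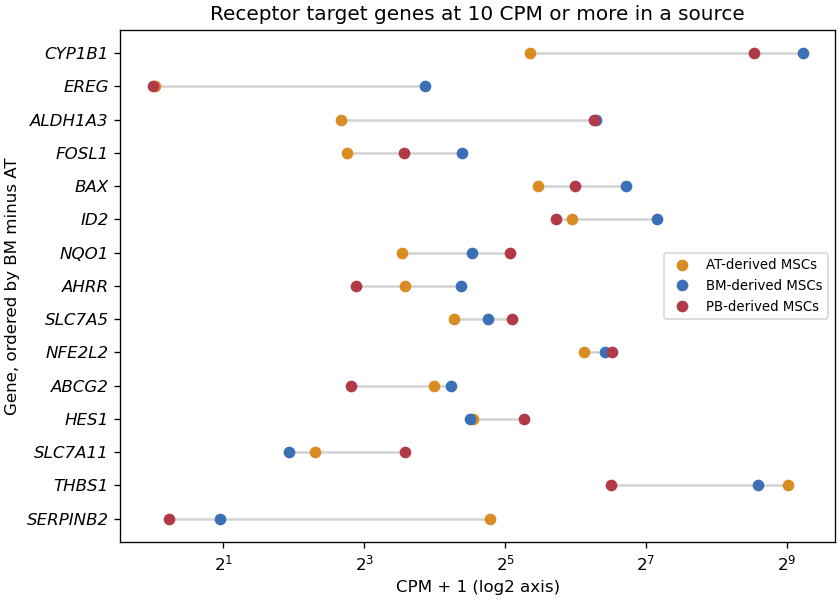
Levels of the 15 listed receptor targets with at least 10 CPM in a source (CPM + 1 on a log2 axis), ordered by the difference of BM minus AT, with 1 point per source. *CYP1B1*, *ALDH1A3* and *EREG* had the widest gaps with AT low, *EREG* with PB low as well, while *SERPINB2* and *THBS1* were highest in AT.

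*NQO1* was also read beside other targets of NRF2, the factor that answers oxidative stress. In BM against AT, 5 of 21 measured genes were past 1 in BM (8.33% of all genes) and 1 in AT (2.46%), with a median of 0.38 beside 0.24 over all genes. The 5 were *NQO1*, *GCLC* (5.48, 21.7 and 10.8 CPM in AT, BM and PB), *SRXN1* (20.6, 54.6 and 31.3 CPM), *ME1* (29.8, 68.9 and 40.4 CPM) and *EPHX1* (1.60, 49.8 and 26.7 CPM). *GCLC* encodes the catalytic subunit of the first enzyme of glutathione synthesis, *SRXN1* the sulfiredoxin that repairs peroxiredoxins and *ME1* a malic enzyme that makes NADPH. *GCLC* and *EPHX1* reached 10 CPM in this pair only through BM, so the count supports nothing by itself. With TMM factors *GCLC*, *SRXN1* and *EPHX1* were left. The transketolase gene *TKT* was higher in AT, at 266, 128 and 100 CPM. In BM against PB, 0 of 22 were past 1 in BM and *SLC7A11* was past 1 in PB, beside 5.8% and 2.15% of all genes. *GCLC* passed 1 in BM when cells were thinned, as a mean over single cells, in cells called G1 and without BM cluster 3, *EPHX1* under the last 2 of these settings and *FTL* in cells called G1. With TMM factors *MAFG* joined *SLC7A11* in PB and the list's median moved from 0.23 to -0.009. In PB against AT, *NQO1*, *SLC7A11* and *EPHX1* of 22 measured genes were past 1 in PB and *TKT* in AT, beside 5.8% and 4.02%. *SLC7A11* and *EPHX1* reached 10 CPM in this pair only through PB, so this count supports nothing by itself.

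Of 31 listed P450 genes and electron donors, 11 reached 10 CPM in BM or AT. Past 1 were *CYP1B1* in BM, beside 8.33% of all genes, and *CYP27C1* in AT, beside 2.46%. This is near the background, *CYP1B1* was selected for its level in BM, and *CYP27C1* reached 10 CPM in this pair only through AT. *CYP27C1*, which encodes a retinoid desaturase, was at 12.2 CPM in AT, 1.44 in BM and 0 UMIs in PB. The list's median was -0.01 for BM minus AT. Below that minimum, *CYP4V2*, a fatty acid hydroxylase gene, was at 2.04 CPM in BM and 2.14 in PB, with AT under 1 CPM, and *CYP11A1*, the cholesterol side-chain cleavage enzyme gene, was at 2.40 CPM in AT and under 1 CPM in BM and PB. Of 16 genes of endogenous ligand synthesis and transport, 4 or 5 were measured per pair and 0 were past 1. Beside 8.33% and 2.46% of all genes for BM against AT, 5.8% and 2.15% for BM against PB and 5.8% and 4.02% for PB against AT, this is near the background. *IDO1*, *IDO2* and *TDO2*, which open the kynurenine pathway of tryptophan, and *KMO* and *KYNU*, which act further along it, were each under 1 CPM in every source. Of 22 genes of steroid and retinoid handling, 9 were measured. *ALDH1A3* and the retinal reductase gene *DHRS3* (5.03, 18.7 and 34.8 CPM) were past 1 in BM and in PB against AT, beside 8.33% and 5.8% of all genes, and both reached 10 CPM only through the higher source. *CRABP2*, for a retinoic acid-binding protein (115, 191 and 528 CPM), and the receptor gene *RARG* (24.3, 38.7 and 92.2 CPM) were past 1 in PB against both other sources, beside 2.15% of all genes against BM. The oestrogen receptor genes *ESR1* and *ESR2* were under 1 CPM in every source.

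The genes whose pattern was most like that of *CYP1B1* were ranked by Pearson correlation of log2(CPM + 1) over the 24 clusters with at least 50 cells, which share 3 libraries, among 3672 genes with at least 50 CPM in a cluster. The first 10 were *FGF7* (r = 0.97), *GJA1*, *EDIL3*, *DLX5*, *SOX4*, *LBH*, ENSECAG00000029071, *AEBP1*, *IRF2BP2* and *JAM2* (r = 0.94). Within AT clusters their r ranged from -0.46 to 0.37, within PB clusters from -0.43 to 0.91 and within BM clusters from 0.85 to 0.96, where cluster 3 lay below the BM level in all of them. *FGF7*, which encodes keratinocyte growth factor, was at 438, 1450 and 1098 CPM in AT, BM and PB, and at 438 CPM in BM cluster 3. *GJA1*, the gene of connexin 43, was at 65.4, 592 and 474 CPM, and *JAM2*, a junctional adhesion molecule gene, at 1.60, 456 and 166 CPM. By the same measure *NQO1*, which reached 50 CPM in PB cluster 6 alone, had r = 0.81 at rank 152. Its r was 0.47 within AT clusters, 0.61 within BM clusters and -0.0006 within PB clusters. *CYP1B1* was selected for its level in BM and is low in AT. Likeness over all 24 clusters therefore largely restates that pattern and supports nothing by itself. Over the 24 clusters r was 0.01 for *AHRR* and -0.47 for *TIPARP*, the last from few UMIs.

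Within thinned BM cells, among 2901 genes seen in at least 10% of cells, the 5 with the highest r were *FTL* (0.33), *COL3A1* (0.32), *LUM* (0.30), *GJA1* (0.29) and *VIM* (0.29). Without BM cluster 3 these were 0.32, 0.26, 0.15, 0.19 and 0.18. *FTL*, the ferritin light chain gene and itself on the NRF2 list, thus had nearly the same r in both sets of cells, whereas *LUM*, a collagen-binding proteoglycan gene, lost much of it.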

How the data were processed

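UMI counts per gene and barcode were deposited by the authors for 3 libraries, AT, BM and PB, as whole numbers without normalization. Per the study's methods, reads were assigned and mapped to EquCab3.0 with Cell Ranger and counted with ESAT, which also takes reads just downstream of annotated genes. This step decides which genes have a row. Symbols, chromosomes and strands are those of the files, and start and end positions, promoter motifs and sequences were not analysed here.

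Kept barcodes held 2500 to 15000 UMIs, with no more than 3% of them mitochondrial. Levels are CPM of summed UMIs, and differences are of log2(CPM + 1), which understates changes of low genes. A difference past 1 was counted over genes with at least 10 CPM in either source. Thinning drew 2500 UMIs per cell without replacement. Seurat 5.3.0, sctransform 0.4.2 and R 4.3.3 gave the clusters and phases (3000 variable genes, regression of mitochondrial share and cell cycle difference, smart local moving at resolution 0.6), which are later versions than the study's. The study's multiplet caller was not run, and an alternative dropped the top 5% by Scrublet score. TMM factors came from edgeR 4.0.16, used for no test. The comparisons had no replicate and no p-value. NumPy 2.4.6 was used throughout.

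The members, the 6 gene lists and the comparisons were chosen with earlier results of these data known. Named were the members, listed genes past a log2 difference of 1 in any pair or defining the receptor complex, the 10 genes most like *CYP1B1* over clusters, the 5 most like it over BM cells, and *JAM2*. Genes under 10 CPM, genes named for being near 0, *IGFBP5* and *MFAP4* were named after their values were seen. Other settings tried were the UMI and mitochondrial limits, depth, scaling, pseudocount, minimum level, phases, doublets, shared barcodes and cluster resolution. Settings without BM cluster 3 and without shared AT barcodes were also added after the data were seen. On simulated counts of BM against AT with 200 genes changed 4-fold up or down among 6578, 200 were recovered and 0 of 6378 unchanged genes passed, which checks the arithmetic only.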

Additional observations from a re-analysis of the deposited data

Results flagged for a closer look

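*CYP1B1* was high in the AT barcodes that the UMI minimum removed. Of the comparisons above, only the *NQO1* value with all barcodes of at least 500 UMIs uses any of them. The 6155 AT barcodes below 2500 UMIs held 1803 *CYP1B1* UMIs, more than the 1599 of the kept AT cells, and their level was 326 CPM (311 to 342) against 39.99 CPM in kept AT cells. *NQO1* was also higher there, at 29.8 CPM (25.5 to 34.8) against 10.6 CPM. These values stand far above the limit that a count of 0 allows, 0.543 CPM in these barcodes.

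Most of these shallow AT barcodes, 5711 of 6155, were also in the PB matrix, and in them *CYP1B1*, *NQO1*, *AHRR* and *JAM2* stood near the levels of kept PB cells. *CYP1B1* was at 354 CPM against 368 in PB, *NQO1* at 31.9 against 32.6, *AHRR* at 6.71 against 6.34 and *JAM2* at 165 against 166. *TIPARP*, from 4 UMIs, was at 0.813 CPM (0.222 to 2.08) against 1.42. *MFAP4* and *DES* were at 7.93 and 4.07 CPM, against 1.61 and 0.288 in kept PB cells and 179 and 204 in kept AT cells. In the 444 shallow AT barcodes that were not in PB, *CYP1B1* was at 99.9 CPM (76.4 to 128) and *JAM2* at 8.19 CPM. In the 74 kept AT cells whose barcode was also in PB, *CYP1B1* was at 144 CPM (111 to 184) and *JAM2* at 33.8 CPM, against 38.8 and 1.24 CPM in the other 5329 kept AT cells. The shallow barcodes of BM and PB were at 937 and 561 *CYP1B1* CPM, above the kept cells of the same source, and 10 of the 526 in BM and 162 of the 554 in PB were also in the AT matrix. Where the reads of the shared barcodes came from was not tested.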

How the results depend on the processing

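No paired analysis was possible because each source had 1 library. With 1 library per source, the values describe these libraries, and depth limits *CYP1A1* and *TIPARP*. The log2 difference of *CYP1B1* in CPM kept its direction in every pair under every alternative that could be run. Cells called S or G2M alone and barcodes above 15000 UMIs alone were not among these alternatives. In both, PB stood above BM. The levels were 314 against 281 CPM in S or G2M cells, and 346 (330 to 363) against 264 CPM (247 to 282) above 15000 UMIs. The BM minus AT difference of 3.87 moved to 3.06 with all barcodes of at least 500 UMIs, 4.28 in G1 cells, 3.59 with TMM factors, 3.26 with a pseudocount of 25 CPM and 4.08 without BM cluster 3. The BM minus PB difference of 0.70 moved to 0.80 at 2500 UMIs per cell, 0.65 without an upper UMI limit, 0.95 in G1 cells, 0.80 as a mean of single-cell CPM, 0.46 with TMM factors and 0.91 without BM cluster 3. PB minus AT, at 3.17, moved to 2.36 with 500 UMIs, 3.32 in G1 cells and 2.60 with the larger pseudocount. The setting of 500 UMIs brings in AT barcodes below 2500 UMIs, and of all 6155 such barcodes 5711 were also in the PB matrix. Its values for AT therefore do not describe AT cells under a looser limit alone. The *NQO1* difference and the *AHRR* share under that setting have the same limit. Removing every barcode held by another library left no PB cell, so it gave BM minus AT only, at 3.92.

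The share of *CYP1B1*-positive cells in BM minus PB, -2.83 percentage points, changed sign to 6.13 at 2500 UMIs per cell, 2.28 in G1 cells, 4.48 without BM cluster 3 and 2.48 with a threshold of 2 UMIs, and the *AHRR* share in PB minus AT changed sign to 0.281 with 500 UMIs. Genes past 1 numbered 763, 562 and 660 in BM minus AT, BM minus PB and PB minus AT, against 208, 127 and 179 with the larger pseudocount, 1380, 1037 and 1310 without a minimum level and 279, 187 and 220 with a minimum of 50 CPM, as follows from their construction. At 2500 UMIs the G1 difference of *CYP1B1* was 1.27 in BM, in place of 1.47, and 0.23 in PB, in place of 0.36, and without cluster 3 it was 0.93 in BM. The cause was not tested for the other changes. Of the remaining values, 77 comparisons of the main measures stayed within counting error, within 0.05 for correlations or within 1.5 times for counts and cluster ratios. The tolerance of 0.05 exceeded every main correlation it was applied to, so that part of the count says little. Within the tolerance of 1.5 times, the *CYP1B1* cluster ratio in BM, 20.6, was 16.1 at resolution 0.4 and 30.5 at resolution 0.8. The planned comparisons of *AHR* were not run.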
